A study of Drosophila melanogaster with 3 samples.

Results

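CAH1, CAH2 and CARPB are carbonic anhydrase genes whose levels differed by cell type in single-cell libraries of sorted Drosophila brain cells, and their transcripts are described here across cell types and libraries. They are 3 of the 17824 features in the deposited matrices. The choice was made on these values. CAH2 and CARPB were picked because they were high in gamma Kenyon cells, and CAH1 because it was high in glia, so those contrasts are given as descriptions with no test. CAH1 (FBgn0027844) lies at 2L:13803626-13809994 of the BDGP6 assembly on the plus strand, with 1 annotated transcript of 3 exons, and overlaps Adat1 on the other strand. CAH2 (FBgn0027843) lies at 3L:12177601-12183347 on the plus strand, with 2 transcripts of 4 exons each. CARPB (FBgn0052698) spans 72227 bp at X:9783223-9855449 on the plus strand, with 4 transcripts that end at 2 different 3′ ends.

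Carbonic anhydrases catalyse the reversible hydration of carbon dioxide to bicarbonate and a proton, and so set how fast pH is buffered inside and around cells. In nervous tissue, glia are known for handling bicarbonate and for buffering the acid that active neurons release. CARPB is named as a carbonic anhydrase-related protein. In mammals such proteins keep the fold of the enzyme but lack residues that hold the catalytic zinc ion. Kenyon cells are the intrinsic neurons of the mushroom body, the insect centre for olfactory memory, and fall into gamma, alpha'/beta' and alpha/beta subtypes that are born in that order.

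The study asked how loss of the serotonin transporter SERT changes transcription in Kenyon cells. In every library, Mef2(P247)-gal4 drove a nuclear GFP, central brains without optic lobes were pooled and dissociated, and GFP-positive cells were sorted and run as 1 10x Genomics 3′ library. The dSERT16 pool joined flies homozygous for the deletion allele dSERT16 with the background-matched control dSERT4 on day 0, the day of eclosion. The dSERT-TMKO pool joined flies with the CRISPR deletion dSERT-TMKO, which removes transmembrane coding sequence, with WT on day 0. The aged pool joined dSERT-TMKO with WT on day 4 to 6, together with WT flies fed the SERT blocker citalopram (CIT) or vehicle (VEH). All flies also carried chromosomes from different wild-type DGRP lines, so that cells could be traced by their SNPs. No map from cells to lines was used here. Each library is therefore 1 sample that holds mutant and control, or drug and vehicle, cells together, and the genotype and drug comparisons were not analysed here.

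The libraries differed in what the sort had captured. The dSERT16 pool held 3544 barcodes and 13183480 UMIs, the dSERT-TMKO pool 9404 barcodes and 61833329 UMIs, and the aged pool 3089 barcodes and 21831009 UMIs. Between 1 and 11 barcode sequences were shared by any pair of libraries. Clusters were named X-like from marker genes. Every gamma-like cluster had all 8 Kenyon cell markers and at least 4 of 5 gamma markers, and every glia-like cluster had at least 5 glial markers and 0 of 8 Kenyon cell markers. Kenyon-like clusters held 91.7% of cells in the dSERT16 pool and 94.2% in the aged pool, but 25.6% in the dSERT-TMKO pool. There 70.2% (5983 of 8523 cells) were glia-like although the sort was for the GFP label of Kenyon cells. The study also found clusters without Kenyon cell markers and removed them before its comparisons. The dSERT16 pool had 162 glia-like cells, or 4.92%, and the aged pool had no glia-like cluster. Gamma-like cells numbered 1878, 1432 and 1499 in the dSERT16, dSERT-TMKO and aged pools, the order in which all lists of 3 values are given. With 1 library a group, no value below has a replicate check. All intervals are 95% intervals that cover counting error only, and levels are CPM, the UMIs of a gene divided by all UMIs of the class and multiplied by 1000000.

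CAH2, an alpha-class carbonic anhydrase gene, was high in gamma-like cells and low in every other class of all 3 libraries. In gamma-like cells it stood at 90.8 CPM in the dSERT16 pool (83.7 to 98.4, from 604 UMIs), against 6.66 CPM in alpha/beta-like cells (25 UMIs). Gamma-like cells of the dSERT-TMKO pool had 128 CPM (121 to 135, 1343 UMIs), against 2.66 CPM in alpha/beta-like cells (9 UMIs). Those of the aged pool had 177 CPM (169 to 185, 2101 UMIs), against 2.39 CPM in alpha/beta-like cells (17 UMIs). The gamma-like level was thus 13.6 times the alpha/beta-like level in the dSERT16 pool (9.15 to 21.3), 48.1 times in the dSERT-TMKO pool (25.3 to 105) and 74.0 times in the aged pool (46.1 to 127). With no doublets removed the ratio in the aged pool was 31.8, from 41 alpha/beta-like UMIs. The other classes were low too. Alpha'/beta'-like cells had 2.40, 7.88 and 2.16 CPM from 2, 9 and 2 UMIs, and glia-like cells had 2.95 and 0.731 CPM in the 2 libraries that held them.

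Detection per cell gave the same order. A CAH2 UMI was found in 20.2%, 41.3% and 54.3% of gamma-like cells in the dSERT16, dSERT-TMKO and aged pools, against 2.42%, 1.32% and 1.10% of alpha/beta-like cells. The libraries had different depths, with medians of 3329, 6389 and 7127.5 UMIs per cell. After every cell was thinned to 1000 UMIs, CAH2 was found in 7.88%, 11% and 16.9% of gamma-like cells, against 0.841%, 0.329% and 0.254% of alpha/beta-like cells. In glia-like cells, which serve as a background class for CAH2, the thinned share was 0 of 162 cells in the dSERT16 pool, which allows up to 1.85% by a floor of 3 counts, and 0.0501% in the dSERT-TMKO pool. No gamma-like cell carried more than 8, 12 and 15 CAH2 UMIs in these libraries, so the level was spread over many cells.

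CARPB shared the gamma-high pattern within Kenyon cells. Gamma-like cells had 89.8 CPM in the dSERT16 pool (597 UMIs), against 5.59 CPM in alpha/beta-like cells (21 UMIs), a ratio of 16.1 (10.4 to 26.1). Those of the dSERT-TMKO pool had 71.2 CPM (748 UMIs), against 3.84 CPM in alpha/beta-like cells (13 UMIs), a ratio of 18.5 (10.8 to 35.0). In the aged pool they had 81.8 CPM (971 UMIs), against 16.5 CPM in alpha/beta-like cells (117 UMIs), and the ratio was smaller, at 4.97 (4.10 to 6.07). After thinning to 1000 UMIs, CARPB was found in 8.89%, 7.68% and 7.20% of gamma-like cells, against 0.841%, 0.494% and 2.03% of alpha/beta-like cells.

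**Figure D1:**
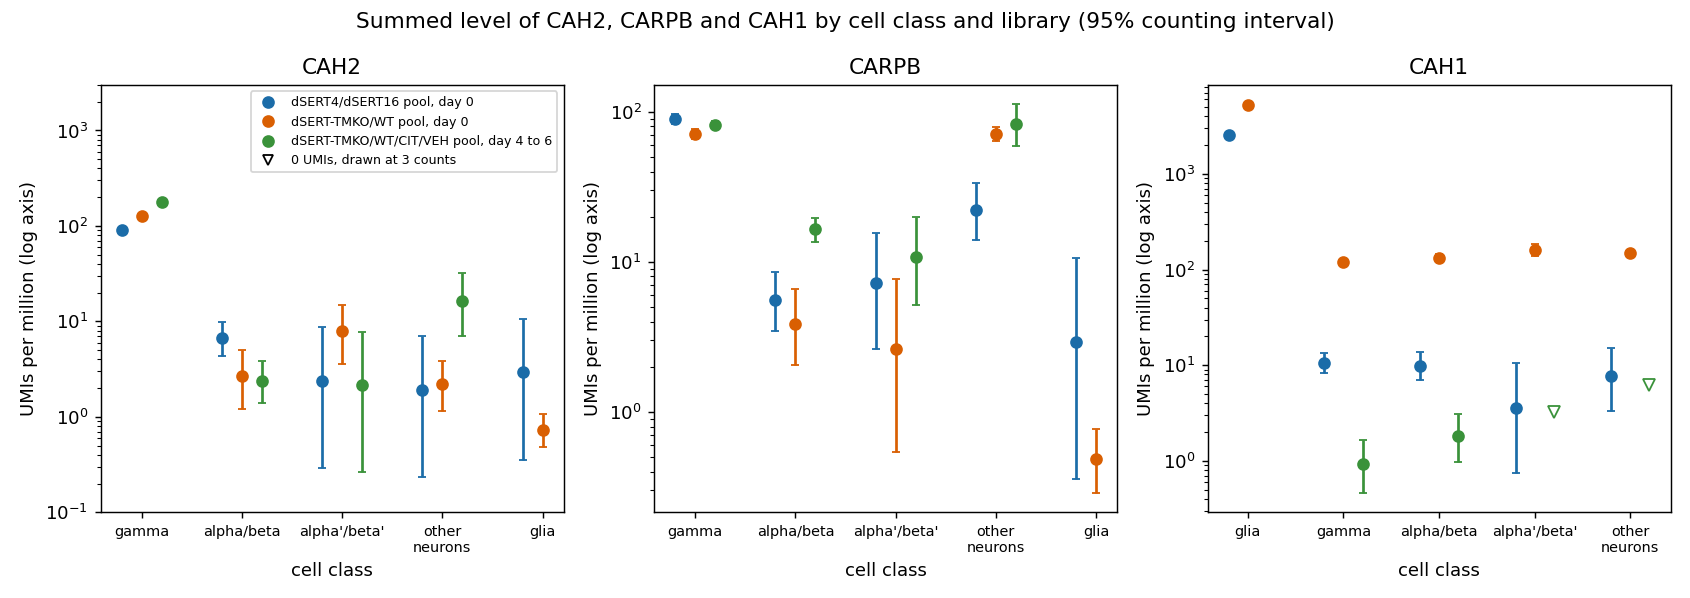
Level of CAH2, CARPB and CAH1 (CPM on a log axis) in each cell class, 1 point per library, with bars for the 95% counting interval and open triangles for 0 UMIs drawn at 3 counts. CAH2 stands out in gamma alone (90.8 to 177 CPM), CARPB in gamma and in other neurons, and CAH1 in glia (2530 and 5305 CPM).

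CARPB differed from CAH2 in the neuron-like clusters that were not named Kenyon-like. In the dSERT16 pool 75 of these 113 cells formed a cluster with 6 of 8 Kenyon cell markers that was kept apart because VGlut, a marker of other neurons, was among its leading genes. It had 18.2 CPM of CARPB, and the remaining 38 cells had 27.9 CPM. All other neurons together had 22.2 CPM of CARPB in the dSERT16 pool, 71.3 CPM in the dSERT-TMKO pool and 82.4 CPM in the aged pool, from 23, 388 and 40 UMIs. The gamma-like level was 4.04 times that of the other neurons in the dSERT16 pool (2.67 to 6.43), but 1.0 times in the dSERT-TMKO pool (0.88 to 1.13) and 0.99 times in the aged pool (0.72 to 1.4). CAH2 had 1.93, 2.21 and 16.5 CPM in the same neurons, from 2, 12 and 8 UMIs. The CARPB signal there came from few cells. Among them, in the dSERT-TMKO pool, 64 of 361 other neurons had a CARPB UMI, 12 had at least 10 and the highest had 40, and the top 5 cells held 37.4% of the UMIs. In the aged pool the top 5 of 41 cells held 87.5%. The top 5 of the 1878, 1432 and 1499 gamma-like cells held 4.19%, 3.48% and 3.19% of CARPB UMIs. Since 5 cells are a far smaller part of the gamma-like classes, these shares are not like measures of spread.

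Of the members that reached 10 CPM in either class, 2 of 3, 2 of 3 and 2 of 2 passed a 2-fold difference upward between gamma-like and alpha/beta-like cells, where 5.22%, 4.31% and 4.54% of all such genes did and 4.58%, 4.44% and 4.58% passed it downward. That contrast chose the members, so nothing is read from these counts. On the scale of log2(CPM + 1) the median difference of the 3, 3 and 2 members tested was 3.58, 3.90 and 3.98. Over all genes tested it was 0.04, -0.03 and -0.01. Nothing is read from these medians either, for the same reason. They are not like measures, since CAH1 was left out in the aged pool.

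Gamma-like cells were not uniform for either gene. Each library had a subcluster chosen as the one with the highest sum of danr, a transcription factor gene known as distal antenna-related, and hec, a G protein-coupled receptor gene. It held 279 gamma-like cells (14.9%), 311 (21.7%) and 296 (19.7%) in the dSERT16, dSERT-TMKO and aged pools. It also had high rdgA, a diacylglycerol kinase gene, at 229, 129 and 339 CPM in the other gamma-like cells against 1147, 770 and 1362 CPM in the subset. Of the gamma markers, Imp was at 1916, 1632 and 2067 CPM in the other gamma-like cells against 2647, 2015 and 2065 CPM in the subset. Another, ab, was higher in the subset, at 1853, 1159 and 1016 CPM in the other gamma-like cells against 2291, 1612 and 1637 CPM. Lower in the subset was mamo, at 7207, 5910 and 7443 CPM in the other gamma-like cells against 1884, 1720 and 2286 CPM. So was zfh2, at 459, 504 and 727 CPM against 276, 444 and 490 CPM. The same held for trio by a smaller margin, at 836, 670 and 597 CPM against 819, 591 and 503 CPM. The subset was singled out after its CAH2 and CARPB values were seen, so its contrast with the other gamma-like cells is a description.

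CAH2 was low in the danr/hec subset. The other gamma-like cells had 102 CPM in the dSERT16 pool (599 UMIs), against 6.42 CPM in the subset (5 UMIs), a ratio of 15.9 (6.78 to 49.2). Those of the dSERT-TMKO pool had 155 CPM (1334 UMIs), against 4.67 CPM in the subset (9 UMIs), a ratio of 33.3 (17.5 to 73.0). Those of the aged pool had 212 CPM (2074 UMIs), against 12.8 CPM in the subset (27 UMIs), a ratio of 16.5 (11.3 to 25.1). A CAH2 UMI was found in 23.4%, 52.1% and 66.2% of the other gamma-like cells, against 1.79%, 2.25% and 6.08% of the subset. Median depth was 3268, 7622 and 8455 UMIs in the other gamma-like cells, against 2547, 6597 and 7074 UMIs in the subset.

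CARPB was low in the same subset. The other gamma-like cells had 101, 85.4 and 94.96 CPM in the dSERT16, dSERT-TMKO and aged pools, against 6.42, 7.79 and 20.5 CPM in the subset. The ratios were 15.7 (6.70 to 48.6), 10.97 (6.61 to 19.7) and 4.64 (3.42 to 6.46). Among genes at 10 CPM in either set, 3.53%, 2.44% and 2.19% were 2-fold higher in the other gamma-like cells and 3.3%, 1.93% and 1.7% lower, and CAH2 and CARPB were among them in each library. CAH1, the glial member, had 10.9, 123 and 1.02 CPM in the other gamma-like cells and 7.70, 106 and 0.48 CPM in the subset.

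**Figure D2:**
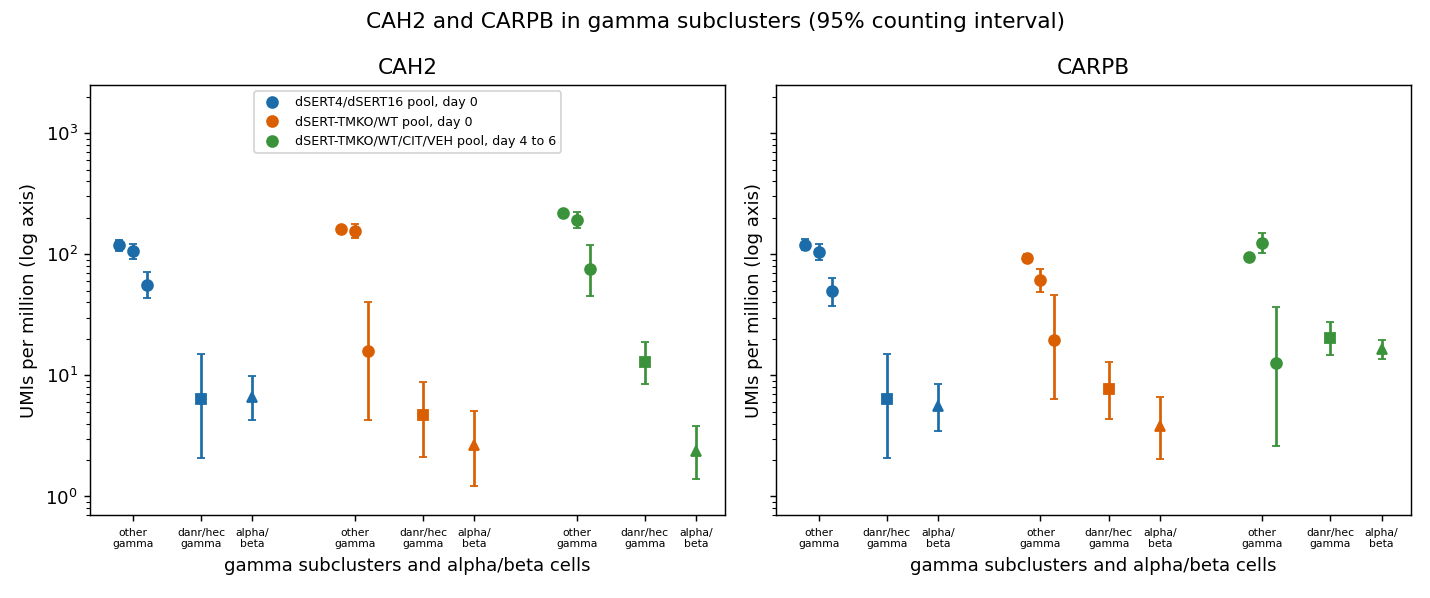
CAH2 and CARPB (CPM on a log axis) in each subcluster of gamma-like cells and in alpha/beta-like cells, grouped by library, with 95% counting intervals. In each library the danr/hec subset (squares) lies far below the larger other gamma subclusters (circles) and close to the alpha/beta-like cells (triangles), except that CAH2 in the aged pool is 12.8 CPM in the subset and 2.39 CPM in alpha/beta.

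For CARPB the interval of the ratio between the danr/hec subset and alpha/beta-like cells included 1 in each library. The subset had 1.15 times their level in the dSERT16 pool (0.34 to 3.13), 2.03 times in the dSERT-TMKO pool (0.90 to 4.63) and 1.24 times in the aged pool (0.86 to 1.78). For CAH2 the same ratio was 0.96 (0.29 to 2.56) and 1.76 (0.62 to 5.0) in the day 0 pools, but 5.37 (2.82 to 10.5) in the aged pool. The other gamma subclusters were closer to each other, apart from those of 23 and 24 cells in the dSERT-TMKO and aged pools. These 2 had 15.8 and 75.6 CPM of CAH2, and 19.7 and 12.6 CPM of CARPB from 5 and 3 UMIs. Low CARPB was thus not confined to the danr/hec subset, which had 20.5 CPM in the aged pool. The subcluster of 24 cells had 193 CPM of hec and 0 danr UMIs. In the other gamma subclusters of the dSERT16 pool CAH2 ran at 119, 106 and 56.0 CPM, and CARPB at 120, 105 and 49.4 CPM. The last of them was marked by ribosomal protein genes and had 158 cells. In the dSERT-TMKO pool the larger ones had 161 and 155 CPM, and in the aged pool 218 and 193 CPM. The leading genes of the subcluster of 23 cells included axo, an ensheathing glia marker, and trol and Col4a1, which led the ensheathing-like cluster of the dSERT16 pool. Col4a1 is also on the list of hemocyte and fat body markers. The subcluster of 23 cells had 1098 CPM of CAH1, and held 278 of the 1262 CAH1 UMIs of gamma-like cells in the dSERT-TMKO pool. A hec UMI was found in 36.6%, 46.6% and 69.9% of the danr/hec subset and in 5.07%, 5.26% and 19.1% of the other gamma-like cells. For danr these shares were 28.0%, 52.1% and 50.7%, against 3.94%, 3.57% and 4.57%. A split of gamma-like cells by a UMI of hec or danr therefore does not match the subset. The cells without such a UMI had 2.70, 3.69 and 1.62 times the CAH2 level of the cells with one, and 3.56, 2.56 and 1.69 times the CARPB level. That split was added after the values were seen, as was the comparison with the largest other subcluster alone, which gave ratios of 18.6, 34.4 and 17.0 for CAH2.

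CAH2 and CARPB were also seen together in single cells beyond the subset. Among the other gamma-like cells, a CARPB UMI was found in 34.0%, 43.2% and 48.0% of cells with a CAH2 UMI, against 24.6%, 37.2% and 33.2% of cells without one. Depth moved with these shares in 2 of the 3 libraries. The cells with CAH2 had medians of 3708, 7609.5 and 8874.5 UMIs, against 3140, 7635 and 7389 UMIs in the cells without, and the part of depth was not tested.

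CAH1 marked glia. In glia-like cells it stood at 2530 CPM in the dSERT16 pool (2412 to 2653, 1716 UMIs), against 9.79 CPM in Kenyon-like cells (110 UMIs), a ratio of 258 (213 to 316). Glia-like cells of the dSERT-TMKO pool had 5305 CPM (5282 to 5329, 195928 UMIs), against 126 CPM in Kenyon-like cells (1889 UMIs), a ratio of 42.2 (40.4 to 44.2). With all variable genes used for clustering, the first ratio was 436 over 88 glia-like cells. A CAH1 UMI was found in 65.4% and 97.6% of glia-like cells, and the glia-like cell with most had 96 and 314 UMIs. CAH1 passed the 2-fold difference upward in both libraries, where 26.3% and 21.9% of all genes at 10 CPM did. CAH2 and CARPB passed it downward, where 32.7% and 38.2% did.

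The level of CAH1 in Kenyon-like cells differed more between libraries than between subtypes. It was 10.5 CPM in gamma-like and 9.86 CPM in alpha/beta-like cells of the dSERT16 pool, and 120 and 131 CPM in the same classes of the dSERT-TMKO pool. In the aged pool it was 0.926 and 1.83 CPM, from 11 and 13 UMIs. In the dSERT-TMKO pool a CAH1 UMI was found in 49.6% of Kenyon-like cells, and after thinning to 1000 UMIs in 10.3% of gamma-like and 11.7% of alpha/beta-like cells, against 88.5% of glia-like cells. Glia-like cells made up 70.2% of that library and 4.92% of the dSERT16 pool. No cluster of the aged pool was named glia-like, but an unnamed one of 132 cells had glial genes among its leading genes. CAH1 was found in 16 of these cells, so the aged pool may hold a few glia. Other glial transcripts were found in Kenyon-like cells at like shares of their glial level. In the dSERT-TMKO pool the Kenyon-like level was 2.37% of the glia-like level for CAH1, 1.90% for alrm, an astrocyte marker, 2.00% for Gat, a GABA transporter, 1.26% for Gs2, glutamine synthetase 2, and 1.33% for Eaat1, a glutamate transporter. In the dSERT16 pool these were 0.387%, 0.423%, 0.196%, 0.492% and 0.202%. Over the 10 glial markers checked this share ran from 1.26% to 3.21% in the dSERT-TMKO pool and from 0.196% to 2.74% in the dSERT16 pool, except for Eaat2, which neurons held at 81.7% and 96.5% of the glia-like level. Whether the 126 CPM of CAH1 in Kenyon-like cells is expression there or free RNA was not tested.

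Glia-like clusters differed in CAH1, and CAH7, another carbonic anhydrase gene, differed among them in another order. The cluster with all 3 astrocyte markers had 6765 CPM of CAH1 in the dSERT16 pool (16 cells) and 8987 CPM in the dSERT-TMKO pool (1758 cells), the highest CAH1 level of any cluster in each. Clusters with all 3 ensheathing glia markers had 3884 CPM in the dSERT16 pool (72 cells) and, in the dSERT-TMKO pool, between 1768 and 5164 CPM over 5 clusters. Clusters with all 3 cortex glia markers had the least, at 317 CPM in the dSERT16 pool, and at 299 and 545 CPM in the dSERT-TMKO pool. The level in the dSERT16 pool came from 94 UMIs in 18 of 74 cells, with 43 of them in 1 cell. A cluster of 124 cells with 3 of 4 surface glia markers had 1277 CPM. It also had 2 markers of hemocytes and fat body, as did the ensheathing-like cluster of the dSERT16 pool. In the dSERT-TMKO pool the ensheathing-like clusters of 903 and 626 cells had 2 of these markers too. The ensheathing markers include Eaat2, which was not particular to glia, so these kinds of glia are names by markers only. CAH7 stood at 4513 CPM in the ensheathing-like cluster of the dSERT16 pool, against 799 CPM in its astrocyte-like cluster. The same gene in the dSERT-TMKO pool had 3326 to 4670 CPM over the ensheathing-like clusters and 1130 CPM in the astrocyte-like one. Cortex-like clusters, lowest in CAH1, had 1509 CPM of CAH7 in the dSERT16 pool, and 1948 and 1974 CPM in the dSERT-TMKO pool. The surface-like cluster had the least CAH7 of the glia-like clusters, at 176 CPM.

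**Figure D3:**
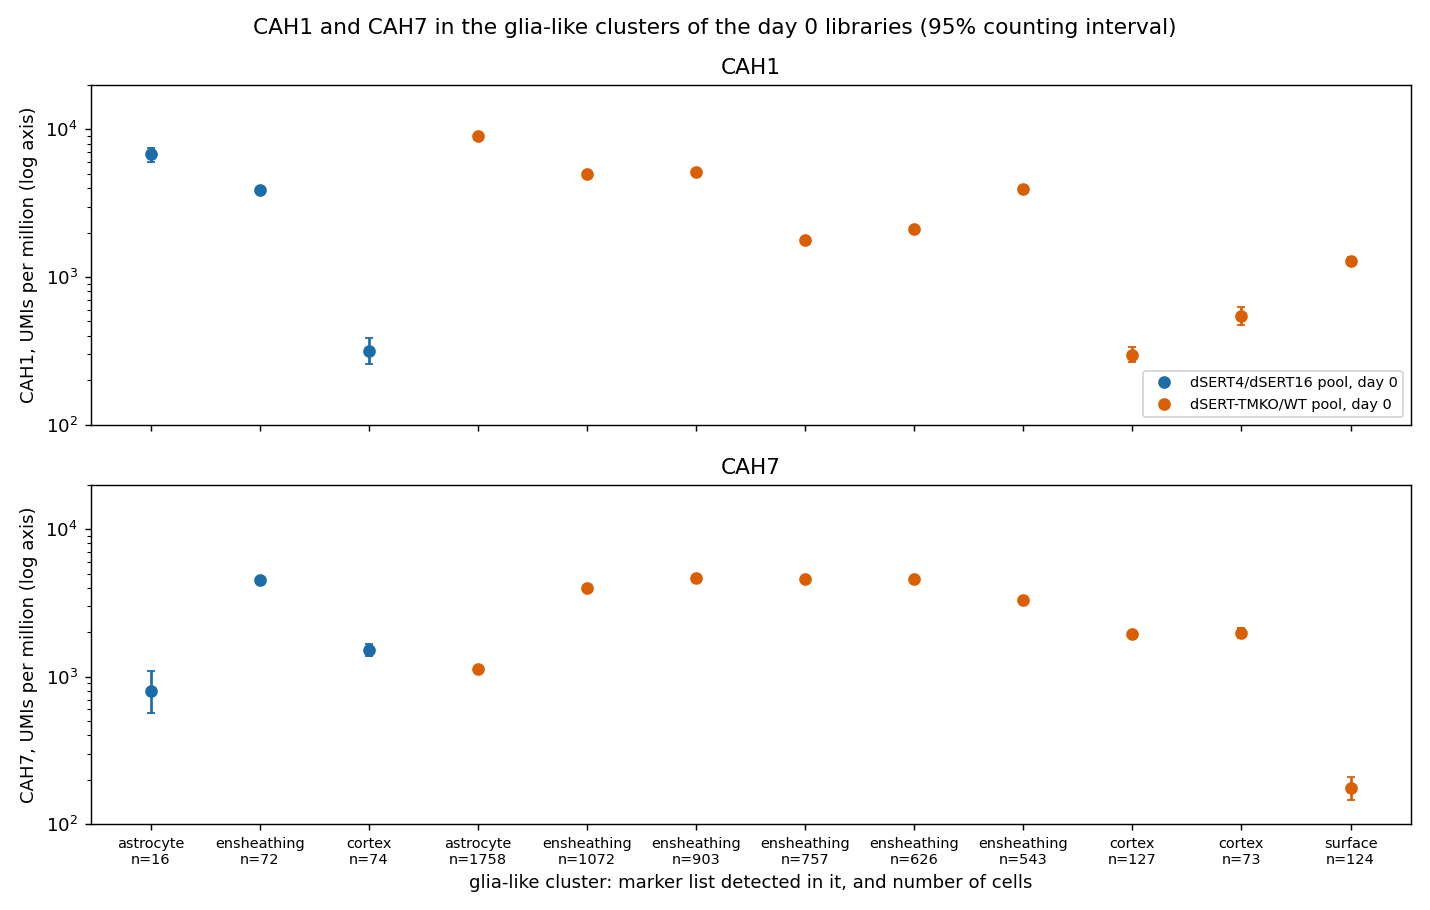
Level of CAH1 and of CAH7 (CPM on a log scale) in each glia-like cluster of the 2 libraries that had such clusters. Clusters are labelled by the kind of glia, named from markers. Astrocyte-like clusters are highest in CAH1 (6765 and 8987 CPM) and lower in CAH7, and cortex-like clusters are lowest in CAH1 (299 to 545 CPM) at 1509 to 1974 CPM of CAH7.

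CAH2 in glia was close to nothing, with 1 exception. Of the 27 CAH2 UMIs in glia-like cells of the dSERT-TMKO pool, 18 were in the surface-like cluster, which had 23.8 CPM and a CAH2 UMI in 9.68% of its cells. This cluster was named after its values were seen, and it also had 2 markers of hemocytes and fat body.

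The list of carbonic anhydrase genes holds 16 genes, of which CAH1, CAH2, CAH3, CAH7, CAH8, CAHbeta, CARPA and CARPB reached 10 CPM in some class. CAH7, like CAH1, was high in glia, at 2931 and 3140 CPM in glia-like cells, against 8.55 and 89.99 CPM in Kenyon-like cells, or 343 times (279 to 425) and 34.9 times (33.1 to 36.9). CAH3 was found in all Kenyon subtypes, with 53.1, 66.0 and 59.8 CPM in gamma-like and 73.5, 81.5 and 62.9 CPM in alpha/beta-like cells. CAH8 was likewise even, with 20.8, 23.9 and 35.6 CPM in gamma-like and 18.4, 25.1 and 38.0 CPM in alpha/beta-like cells. CAHbeta, which by its name belongs to the beta class of the enzyme, ran against CAH2. It had 7.82, 7.33 and 7.07 CPM in gamma-like and 26.4, 21.0 and 12.4 CPM in alpha/beta-like cells, or 0.30 times (0.21 to 0.42), 0.35 times (0.25 to 0.49) and 0.57 times (0.42 to 0.78). CARPA, the other related protein gene, was found in the other neurons, at 48.3, 71.1 and 32.9 CPM. Kenyon-like cells had 0 CARPA UMIs in the dSERT16 and dSERT-TMKO pools, which by the same floor of 3 counts allows up to 0.267 and 0.1995 CPM, and 1 UMI in the aged pool.

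**Figure D4:**
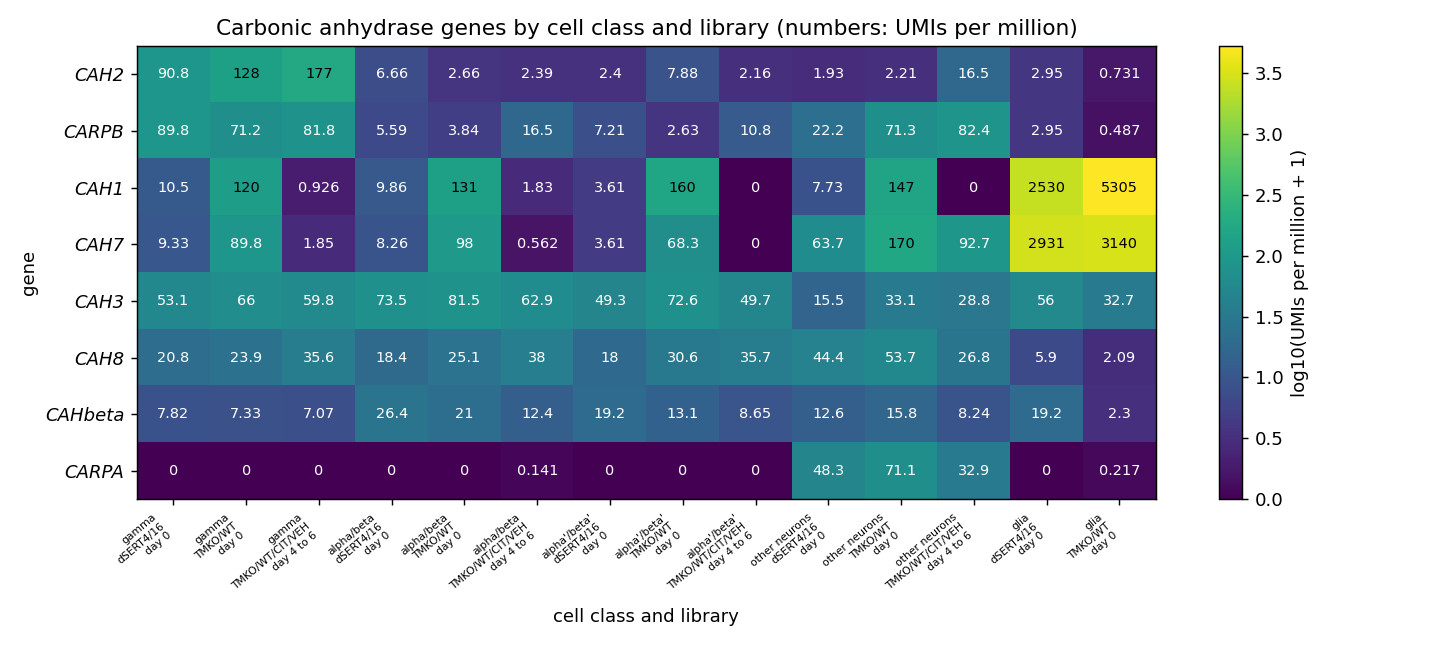
Level of the carbonic anhydrase genes that reached 10 CPM in some class, by cell class and library. Colour is a log scale of CPM, brighter for higher levels. CAH1 and CAH7 are brightest in glia, CAH2 in gamma, CARPB in gamma and other neurons, and CARPA in other neurons.

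Of these 16 genes, 6, 7 and 5 reached 10 CPM in gamma-like or alpha/beta-like cells of the 3 libraries. In each library CAH2 and CARPB were 2-fold higher in gamma-like cells, and CAHbeta was 2-fold lower in both day 0 pools. Over all genes tested 4.31% to 5.22% were higher and 4.44% to 4.58% lower, and the genes that were higher are the members chosen on this contrast. Between glia-like and Kenyon-like cells, 7 were tested in each library. CAH1 and CAH7 were higher in glia-like cells in both, and 3 were lower in the dSERT16 pool (CAH2, CAH8 and CARPB) and 5 in the dSERT-TMKO pool (these with CAH3 and CAHbeta). Over all genes tested 26.3% and 21.9% were higher and 32.7% and 38.2% lower, and CAH1, CAH2 and CARPB had been chosen for their levels by cell type. The list's median log2 difference was -0.09 and -1.84, beside -0.30 and -0.54 over all genes tested.

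Genes that move protons, chloride, bicarbonate or monocarboxylates act beside carbonic anhydrases in pH handling. Of a list of 43 such genes, 24, 23 and 23 were tested between gamma-like and alpha/beta-like cells. Only 2 were higher and 1 lower in the dSERT16 pool, none in the dSERT-TMKO pool, and 1 was lower in the aged pool, so that none was called in all 3. Over all genes tested 4.31% to 5.22% were higher and 4.44% to 4.58% lower, so these counts lie near the general share. Between glia-like and Kenyon-like cells 27 were tested, and 7 were higher in each library, with 6 of them shared. Lower were 11 in the dSERT16 pool and 12 in the dSERT-TMKO pool, with 11 shared. Over all genes tested 26.3% and 21.9% were higher and 32.7% and 38.2% lower in the dSERT16 and dSERT-TMKO pools, so the list as a whole is not read as different.

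The called transport genes with the largest folds in both libraries were these. Ncc69, a sodium-potassium-chloride cotransporter gene, had 136 and 120 CPM in glia-like cells, against 0.267 and 2.39 CPM in Kenyon-like cells of the dSERT16 and dSERT-TMKO pools. ClC-a, a chloride channel gene, had 609 and 505 CPM in glia-like cells, against 0.890 and 10.4 CPM in Kenyon-like cells. Vha68-2, a gene for a subunit of the proton pump V-ATPase, had 88.5 and 96.4 CPM in glia-like cells, against 0.623 and 1.93 CPM in Kenyon-like cells. On the neuronal side, Ndae1, a sodium-driven anion exchanger gene, had 38.3 and 2.52 CPM in glia-like cells, against 366 and 242 CPM in Kenyon-like cells. Nhe2, a sodium-proton exchanger gene, had 1.47 and 5.50 CPM in glia-like cells, against 85.3 and 55.3 CPM in Kenyon-like cells. Sln, a monocarboxylate transporter gene, had 1.47 and 0.244 CPM in glia-like cells, against 42.6 and 41.1 CPM in Kenyon-like cells.

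Levels in the aged pool (day 4 to 6) were set beside those of the day 0 pools within each subtype. In gamma-like cells CAH2 was 1.38 times the level of the dSERT-TMKO pool (1.29 to 1.48) and 1.95 times that of the dSERT16 pool (1.78 to 2.14). The day 0 pools themselves differed, with the dSERT-TMKO/WT pool at 1.41 times the dSERT16 pool (1.28 to 1.55). CARPB in gamma-like cells stayed near 1, at 1.15 (1.04 to 1.27) and 0.91 (0.82 to 1.01). Neither passed 2-fold in either comparison, where 2.74% and 3.82% of genes were higher and 2.85% and 2.25% lower.

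In alpha/beta-like cells CARPB was 4.29 times the level of the dSERT-TMKO pool (2.41 to 8.29) and 2.94 times that of the dSERT16 pool (1.84 to 4.93). It passed 2-fold upward in both, where 4.08% and 6.37% of genes did and 3.89% and 3.07% passed it downward. Both alpha/beta-like clusters of the aged pool carried it, at 15.2 CPM over 935 cells and 20.5 CPM over 246 cells. CAH2 in alpha/beta-like cells did not show this, at 0.90 times (0.38 to 2.29) and 0.36 times (0.18 to 0.69). Within the danr/hec subset CARPB was 2.63 times (1.43 to 5.09) and 3.19 times (1.27 to 10.3) the day 0 levels, and CAH2 2.75 times (1.26 to 6.65) and 2.00 times (0.76 to 6.66). CAH1 in gamma-like cells was 0.00771 times the level of the dSERT-TMKO pool (0.00384 to 0.0138). Glia-like clusters held 70.2% of the cells of the dSERT-TMKO pool. In the aged pool no cluster was named glia-like, but an unnamed one of 132 cells with glial leading genes carried CAH1. Age, feeding, library and the mix of genotypes cannot be told apart here, since day 4 to 6 and the fed flies were in 1 pool only.

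Last, genes were ranked by how closely their levels followed each member over 22 units of 50 or more cells, which were the neuronal classes and the single glia-like clusters of each library, among 6551 genes. The units share 3 libraries, and 11 of them are glia-like clusters, so the values describe and do not test. CAH1 was followed most closely by CG31705, Gs2, CG9394, Adgf-D and CG1552, with Pearson r of 0.98 to 0.99. CAH2 was followed by dlp, a glypican gene, at 0.86, and by CG32392, CG31675, CG32647 and hec at 0.78 to 0.83, although hec was high in the gamma subset where CAH2 was low. CARPB was followed by CG1504 at 0.92, and by Fmr1, which encodes an RNA-binding protein, the receptor gene CCKLR-17D3, CG43707 and Vap33 at 0.89 to 0.90. Between members, r was 0.76 for CAH2 with CARPB, -0.48 for CAH1 with CAH2 and -0.73 for CAH1 with CARPB.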

How the data were processed

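Sorted brain cells were profiled in 3 libraries (10x Genomics 3′ chemistry). The authors deposited filtered matrices of raw UMI counts per gene and barcode, made with Cell Ranger 7.0.0, and the submitters' processing notes also name Seurat and dm6. Another 4 deposited tables hold the authors' own comparisons (log fold changes and p-values) and were not used. Of 17824 features, 17738 (99.5%) had a position in the BDGP6 annotation. Values listed for 3 pools run dSERT16, dSERT-TMKO, aged.

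Following the study's limits, cells needed 1000 or more UMIs with a mitochondrial share of 20% or less (3299, 8849 and 2996 cells). Scrublet marked 5, 326 and 26 doublets, or 0.152%, 3.68% and 0.868%, and the low rates mean that few were removed. The study's removal of doublets by genotype was not used here. Each library was clustered alone with scanpy 1.11.5 on 2000 variable genes without carbonic anhydrase genes (10 components, 20 neighbours, Leiden 0.3, leidenalg 0.10.2). A marker counted where at least 25% of a cluster's cells had it, at no less than 25% of the highest cluster's level. Kenyon-like needed 5 of 8 markers with no glial marker or marker of other neurons among the 10 leading genes, and neurons and glia needed 3 markers. Members, gene lists and naming rules were chosen with earlier results of these data known.

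Counts were summed per class. Intervals are exact (Poisson for levels, Clopper-Pearson for shares, conditional binomial for ratios; scipy 1.17.1), at 95%, and cover counting error only. A count of 0 is drawn, and its limit given, at a floor of 3 counts. Genes at 10 CPM in either class were called past 2-fold. Named were the members, list genes at 10 CPM, at most 6 transport genes called in every library with the comparison, and the 5 genes most correlated with each member on log2(CPM + 1) (20 CPM in a unit, 50 cells per unit). No test was fitted, since each group is 1 library. The scripts were tested on simulated counts. Alternatives were 2000 UMIs, 10% mitochondrial, no doublet removal, Leiden 0.8, all variable genes, mean CPM per cell and thinning to 2000 UMIs.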

Additional observations from a re-analysis of the deposited data

Results flagged for a closer look

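One cluster of the aged pool, which the comparisons do not use, carried glial carbonic anhydrases that the Kenyon-like cells of that library lacked. It held 132 cells, had all 8 Kenyon markers and was left unnamed because Obp44a and Gs2, genes of glia, were among its leading genes. CAH1 stood there at 195 CPM (168 to 225, 188 UMIs), against 1.21 CPM in the Kenyon-like cells of the same library. CAH7 stood at 181 CPM (155 to 210, 175 UMIs). The UMIs came from few cells, with CAH1 in 16 of 132 and both genes in 14, at up to 40 CAH1 UMIs in 1 cell. Of the 16 cells, 3 also had a UMI of the Kenyon marker prt. The part of doublets and of a few glia was not tested.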

How the results depend on the processing

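No paired analysis was possible because each group is 1 library and the labels give no replicate numbers. For the same reason no replicate could be left out. Over 62 ratios recomputed under another setting, none changed direction, 49 moved by less than their counting interval and 13 moved by more, and the cause was not tested. CAH1 in glia-like over Kenyon-like cells was 206 in the dSERT16 pool and 39.2 in the dSERT-TMKO pool as a ratio of mean CPM per cell, and 436 in the dSERT16 pool with all variable genes. In the dSERT-TMKO pool it was 44.7 with at least 2000 UMIs, 30.5 with no doublets removed and 28.6 without the astrocyte-like cluster, an alternative chosen after seeing the data. CAH2 in gamma-like over alpha/beta-like cells was 31.8 in the aged pool with no doublets removed. The split of gamma-like cells by a hec or danr UMI, also chosen after seeing the data, gave 2.70, 3.69 and 1.62 for CAH2 and 3.56, 2.56 and 1.69 for CARPB. CARPB in gamma-like over alpha/beta-like cells lay between 15.4 and 17.6, 13.3 and 18.8, and 4.44 and 5.22 in the 3 pools. Depth limits the low classes most, since alpha/beta-like levels of CAH2 rest on 9 to 25 UMIs, and shares of gamma-like cells with a UMI were higher at 2000 than at 1000 UMIs per cell for each member in each pool.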
